A study of Mus musculus with 6 samples.

Results

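The 9 genes described here belong to 3 imprinted clusters on mouse chromosome 6: Peg10, Sgce, Ppp1r9a and Calcr; Mest, Copg2 and Klf14; and Nap1l5 and Herc3. They were chosen by name, and every row of the methylation table whose closest gene was a member was taken, at any distance. The table held 682 such CpG sites of 2268080 in all, of which 262 were covered by 10 or more reads in every one of the 6 samples, of 681804 such sites in the whole table. At a minimum of 5 reads there were 375 sites of 971165. GS cells are cultured mouse spermatogonia that include spermatogonial stem cells. They carried the genotype DBA/Tg14(act-EGFP-OsbY01), an EGFP transgene on a DBA background, in both groups, and they were kept on feeder cells of mouse embryonic fibroblasts. Space GS cells (n = 3) had been frozen for 6 months on the International Space Station. Ground GS cells (n = 3) had been frozen for 6 months on Earth. The paper reports that the cells were thawed and passaged in culture before RRBS, so the levels are those of cells grown after storage. Nothing in the labels says whether the 3 replicates of a group came from separate thawed vials, so p-values measure only the spread between these samples, which may be technical. DNA methylation was measured by reduced representation bisulfite sequencing (RRBS), which reads CpG sites near MspI cuts.

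An imprinted gene is expressed mainly from the allele of 1 parent, and the choice is carried by CpG methylation set in the germline. The control regions of Peg10, Mest and Nap1l5 are known to be methylated in the oocyte and unmethylated in sperm, so somatic cells hold a methylated maternal and an unmethylated paternal copy, whereas male germ cells have erased the maternal mark. Peg10, Sgce, Mest and Nap1l5 are expressed from the paternal allele, and Klf14, Ppp1r9a, Calcr and Copg2 are known for maternal expression in some tissues.

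RefSeq promoter sequences were at hand for 6 of the 9 genes (Peg10, Sgce and Klf14 had no entry), and 3 are shown because their starts mark the paternally expressed genes Mest and Nap1l5 and the Mest neighbour Copg2. Each is the stretch just upstream of a transcription start site (TSS), 5′ to 3′ on the gene's strand, with the CpG dinucleotides in capitals. The build is GRCm38.p6, whose coordinates differ from those of the methylation table, so no measured site was placed on these letters. Nap1l5 is the 250 bases at chr6:58907127-58907376 (minus strand), Mest the 250 bases at chr6:30737800-30738049 (plus strand), and Copg2 the 186 bases at chr6:30896795-30896980 (minus strand), which stop before an annotated UTR of Tsga13.
Nap1l5: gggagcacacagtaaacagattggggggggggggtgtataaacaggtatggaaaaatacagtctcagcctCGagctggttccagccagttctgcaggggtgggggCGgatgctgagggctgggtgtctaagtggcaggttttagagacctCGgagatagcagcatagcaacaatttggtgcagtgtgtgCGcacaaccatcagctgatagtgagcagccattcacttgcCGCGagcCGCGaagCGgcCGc
Mest: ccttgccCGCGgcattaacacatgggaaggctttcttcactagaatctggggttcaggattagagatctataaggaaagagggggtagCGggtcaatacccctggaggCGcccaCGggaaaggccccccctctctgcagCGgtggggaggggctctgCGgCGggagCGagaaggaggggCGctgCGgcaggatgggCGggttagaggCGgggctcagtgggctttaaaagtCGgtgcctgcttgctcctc
Copg2: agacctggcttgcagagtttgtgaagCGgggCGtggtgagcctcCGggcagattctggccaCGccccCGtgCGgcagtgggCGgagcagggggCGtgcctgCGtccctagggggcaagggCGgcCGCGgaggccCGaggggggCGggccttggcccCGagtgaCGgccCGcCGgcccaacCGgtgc
The Nap1l5 stretch held 10 CpG dinucleotides, Mest 14 and Copg2 19, although the Copg2 stretch is shorter, against a median of 6 over the 32851 RefSeq windows of 250 bases. The MspI site CCGG, a palindrome, was absent from the Nap1l5 and Mest stretches, occurred 3 times in Copg2, and lay in 47.1% of all windows. TGCCGC, the hexamer known to be bound by the imprint-maintaining factor ZFP57 when it is methylated, was searched on both strands. It was found 1 time in Nap1l5, 2 times in Mest and 1 time in Copg2, and 8.68% of all windows held it.

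Coverage decided which genes could be described. The counted reads summed over all sites ranged from 28535973 to 33743845 per sample, and the median depth at the 681804 common sites was 27 to 32 reads. Klf14 had 76 sites at this minimum, Ppp1r9a 57, Copg2 46, Herc3 25, Peg10 22, Nap1l5 18, Mest 13, Calcr 5 and Sgce 0. At each site, the lowest read count among the 6 samples was taken, and its median over sites was 22 reads at the member sites and 21 at all common sites. A methylation level is the percent of reads with a methylated C, pooled over the sites named, and each group value is the mean ± SD of 3 samples. No molecular identifiers are named in the sources used here, and neighbouring sites share fragments, so limits quoted for a count of 0 cover counting error only. Positions are those of the table (mm39 in the submitters' processing notes), and distances run along the strand of each gene.

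The genes were nearly unmethylated close to their TSS and held both low and high sites farther away. All 217 sites within 1 kb of a TSS, in 7 genes, had a mean level under 10%, and the highest was 6.94%. Over the whole table, 98.7% of sites within 1 kb were under 10%. Of the 45 sites beyond 1 kb, 19 were above 90%, 14 under 10% and 12 between, and 34.7% of all sites beyond 1 kb were above 90%. A level of 20% to 80% was found at 1 of the 262 sites, in Peg10, against 4.44% of all common sites. Since 217 of the 262 lay within 1 kb and the common sites were not matched for position, these shares are not compared further.

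**Figure D1:**
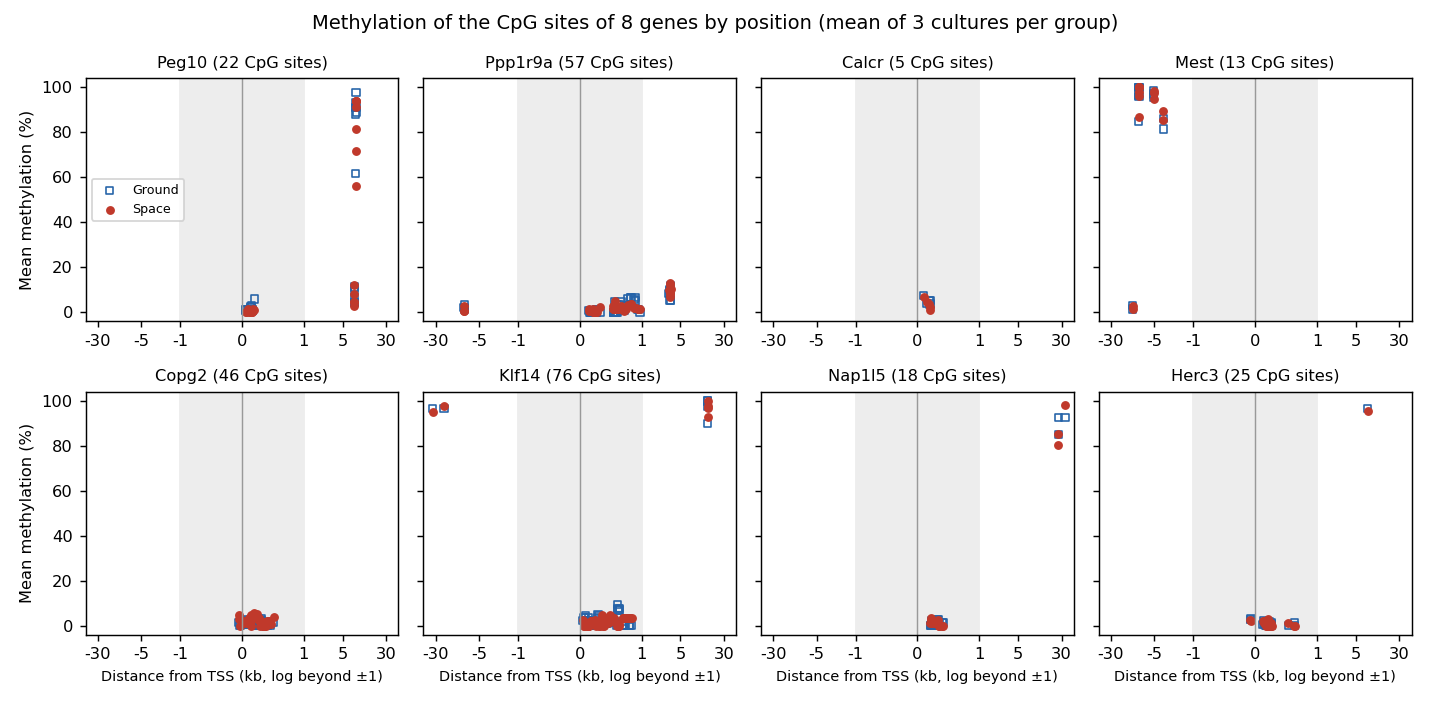
Mean methylation (%) of each of the 262 CpG sites against its distance from the TSS of its gene (kb, linear within 1 kb and logarithmic beyond, shaded within 1 kb), for the 8 genes with such sites. Filled circles are Space and open squares Ground means of 3 samples, and all 217 sites in the shaded parts lie under 10%.

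Of the 4 paternally expressed genes, only Peg10 and Nap1l5 had covered sites within 1 kb of the TSS. Peg10 encodes a retrotransposon-derived protein needed for the placenta. Its promoter run held 10 sites at chr6:4747370-4747508, 64 to 202 bp downstream of the TSS. Space GS cells had 0%, 0.75% and 0.30%, and Ground GS cells 4.39%, 0.89% and 0.96%. The groups did not overlap, but 1 sample, Ground replicate 1, stood well above the rest. Space replicate 1 had 0 methylated of 271 reads, which allows a level of up to 1.11%. The means were 0.348% ± 0.38 and 2.08% ± 2.00 (SD, n = 3 each), a difference of -1.73 percentage points, and -0.58 without Ground replicate 1. The exact permutation test gave p = 0.1 (two-sided), the smallest value that 3 against 3 samples allow. At a minimum of 20 reads, or with equal site weights, the groups overlapped. Ground replicate 1 also had the highest mean level within 1 kb of all genes, 2.74%, with 2.18% to 2.71% in the other 5 samples, and the part this played in the difference was not tested.

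Farther into the Peg10 gene, low and high methylation lay close together. A run of 5 sites 8038 to 8100 bp downstream of the TSS (chr6:4755344-4755406) had 3.91%, 9.49% and 4.10% in Space GS cells and 5.37%, 10.5% and 6.40% in Ground GS cells. The next run of 7 sites began 438 bp further on (chr6:4755844-4755994). It had 80.3%, 87.4% and 86.1% in Space and 92.3%, 83.4% and 88.8% in Ground GS cells. The step from the first to the second run was 72.9 to 86.9 points in the 6 samples, 78.8 ± 2.9 in Space and 80.8 ± 7.2 in Ground GS cells (SD, n = 3 each; exact permutation p = 0.7, two-sided). The first site past the step (chr6:4755844) was intermediate in all samples, at 52.9%, 50% and 65% in Space and 58.3%, 50% and 76.5% in Ground GS cells. Since both runs fall in 1 distance class, the pooled Peg10 level beyond 5 kb (46.2% ± 10.5 in Space and 45.9% ± 4.6 in Ground GS cells) describes neither of them. A further stretch of 3 sites, 9219 to 9231 bp downstream, was read at 5 reads or more, and its levels were 85.7% to 100%.

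**Figure D2:**
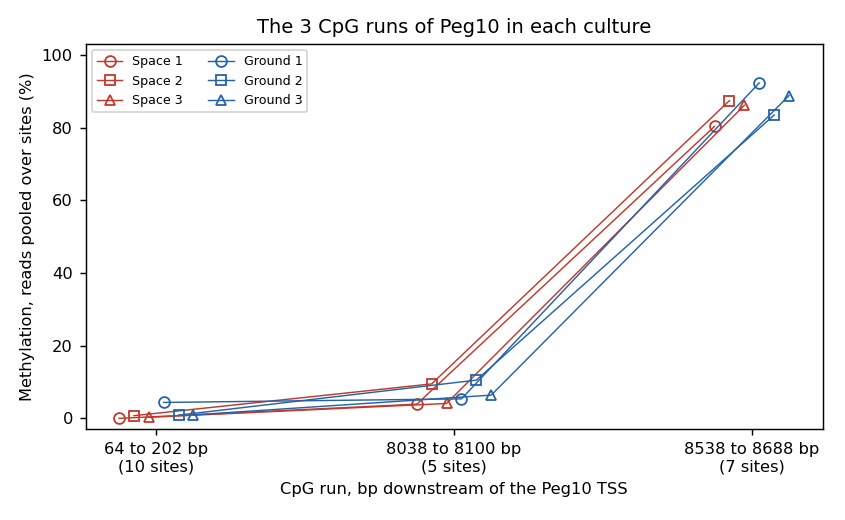
Methylation (%, reads pooled over sites) of the 3 CpG runs of Peg10 in each sample, ordered by distance downstream of the TSS (bp). Each line joins the runs of 1 sample. All 6 samples are under 11% in the first 2 runs and above 80% in the last.

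Sgce encodes epsilon-sarcoglycan, a membrane protein of the dystrophin-associated complex, and its TSS lies 99 bp from that of Peg10 on the opposite strand. None of its 12 rows within 1 kb reached 5 reads in all samples. The 8 sites that did lay 13.4 to 25.8 kb inside the gene and were methylated, at 91.7%, 85.2% and 85.0% in Space and 97.2%, 93.4% and 90% in Ground GS cells (exact permutation p = 0.2, two-sided).

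Mest encodes a hydrolase-like protein of the mesoderm. The table gave it 1 TSS (chr6:30723546), all its 16 rows lay more than 1 kb away, and the 13 with at least 10 reads were upstream. A pair of sites 12.2 kb upstream was nearly unmethylated, with 0% to 6.25% in the 6 samples. The next runs towards the gene were highly methylated. The 6 sites 9542 to 9434 bp upstream had 96.7%, 97.6% and 96.2% in Space and 97.6%, 94.0% and 96.9% in Ground GS cells. Those 5121 to 5091 bp upstream (3 sites) had 94.2% to 100%, and the pair at 3463 and 3448 bp had 87.4% ± 3.9 in Space and 83.9% ± 6.9 in Ground GS cells (SD, n = 3 each). None of these upstream runs separated the groups.

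None of the covered sites listed under Mest lay inside the gene. In the GENCODE M21 annotation (GRCm38), Mest has 10 start positions. The RefSeq starts of Mest lie 9959, 14503 and 14506 bp downstream of the most upstream of these. The start at 14503 bp follows the printed Mest stretch. These distances are in GRCm38, and no measured site was placed on that build. Some rows inside the gene were listed under Gm44296, a gene within Mest on the opposite strand, whose TSS was the closer. These were looked at after the member values were seen. A run of 4 of them, 9264 to 9305 bp downstream of the table's Mest TSS, had 3.23%, 4.08% and 4.55% in Space and 6.40%, 0% and 5.26% in Ground GS cells. Another 2 sites, 15741 to 15776 bp downstream, had 0% to 6.33%. The samples of both groups overlapped at these positions. At a minimum of 5 reads, 9 further sites 11783 to 11929 bp downstream had 0% to 6.94% in 5 samples and 23.5% in Space replicate 2, on 81 reads.

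Nap1l5, a nucleosome assembly protein gene without introns that lies inside an intron of Herc3, was low near its start as well. Its 15 sites 211 to 421 bp downstream of the TSS (chr6:58883640-58883850) had 0.65%, 3.16% and 0.23% in Space and 0%, 1.15% and 2.52% in Ground GS cells. The samples of both groups were mixed, with means of 1.35% ± 1.58 and 1.22% ± 1.26 (SD, n = 3 each; exact permutation p = 0.9, two-sided). Ground replicate 1 had 0 methylated of 468 reads, which allows up to 0.641%. Distal Nap1l5 sites, which lie on the side of the Herc3 start, were methylated at the single site 34786 bp downstream (96.9% to 100% in Space and 89.2% to 95.3% in Ground GS cells, which did not overlap) and at the pair 26283 to 26363 bp downstream (70% to 90.9%). A run of 5 sites 26559 to 26649 bp downstream, read only at 5 reads or more, was intermediate and varied most: 60.0%, 51.9% and 68.0% in Space and 68.0%, 45.7% and 23.3% in Ground GS cells, on 25 to 50 reads per sample.

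Herc3 encodes a ubiquitin ligase, and its TSS is 75.6 kb from that of Nap1l5. The 24 sites within 1 kb had 2.34%, 0.32% and 1.33% in Space and 0.82%, 0.63% and 1.60% in Ground GS cells. In contrast, the single distal site 8204 bp downstream had 92.5% to 100%. At a minimum of 5 reads the promoter set grew to 70 sites and stayed at 0.60% to 2.00%.

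The genes known for maternal expression come next. Copg2, a coat protein subunit of transport vesicles, had 46 sites between 51 bp upstream and 511 bp downstream of its TSS (chr6:30873218-30873780). They had 1.48%, 1.70% and 2.33% in Space and 1.83%, 1.03% and 1.01% in Ground GS cells, a difference of 0.55 points (exact permutation p = 0.3, two-sided). With equal site weights the Copg2 difference was 0.99 points and the groups did not overlap (exact permutation p = 0.1, two-sided). Ppp1r9a, which encodes the actin-binding protein neurabin, was low close to its start: its 18 sites 151 to 334 bp downstream had 0% to 0.78%. The 29 sites at 541 to 975 bp had 1.47%, 3.18% and 1.23% in Space and 5.32%, 1.41% and 0.86% in Ground GS cells. Its 7 sites 3119 to 3351 bp downstream were partly methylated in every sample, at 16.2%, 5.23% and 7.29% in Space and 11.6%, 10.3% and 4.47% in Ground GS cells. Another 3 Ppp1r9a sites, 9227 to 9201 bp upstream, had 0% to 3.17%. At a minimum of 5 reads, sites 20.65 to 123.05 kb downstream joined these, with 75% to 100% per sample. The pooled Ppp1r9a level beyond 5 kb was then 26.9% to 42.7%. Calcr, the calcitonin receptor gene, had 5 sites up to 209 bp downstream (chr6:3764505-3764612), with 3.77%, 3.25% and 4.09% in Space and 8.72%, 2.01% and 4.33% in Ground GS cells. Another 8 Calcr sites, 24106 to 24018 bp upstream and read only at 5 reads or more, had 95% to 100%. The Calcr level of 4.36% within 1 kb was above that of 92.7% of 14373 promoters with at least 3 sites, whereas the other 6 genes lay above 11.9% to 59.0% of them. Ground replicate 1 was the highest sample in Peg10, Ppp1r9a and Calcr, and in none of the other 4 promoters.

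**Figure D3:**
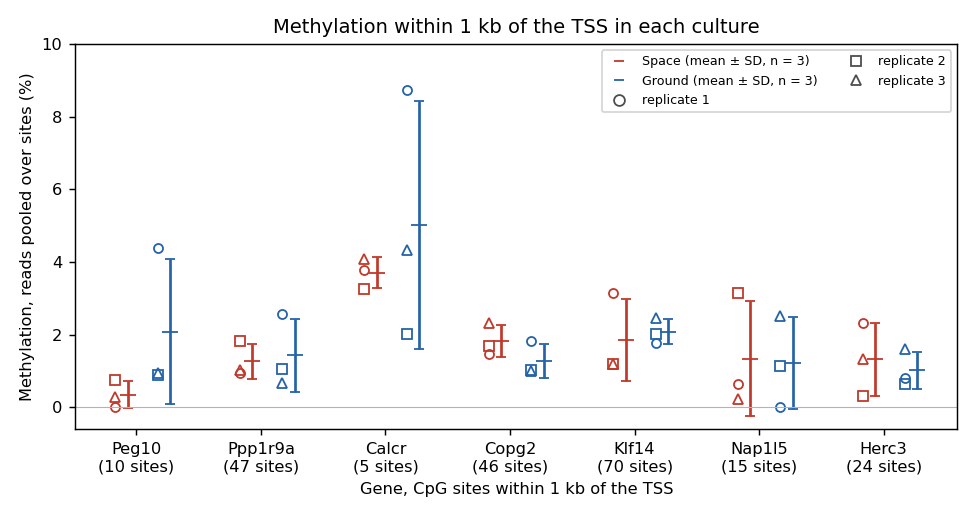
Methylation (%, reads pooled over the sites within 1 kb of the TSS) in each sample for the 7 genes with such sites. Space is in red and Ground in blue. Symbols are single samples and bars are mean ± SD (n = 3); the groups overlap in every gene except Peg10.

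Klf14, a zinc finger transcription factor gene with a single exon, had the largest covered promoter, 70 sites at 48 to 839 bp downstream of the TSS (chr6:30935174-30935965). The whole run had 3.16%, 1.20% and 1.19% in Space and 1.77%, 2.03% and 2.45% in Ground GS cells. Within it, 5 adjacent sites spanning 31 bp (612 to 642 bp downstream, chr6:30935371-30935401) went a different way from the rest, and they were singled out after their values were seen. Space GS cells had 1 methylated of 271 read calls, 1 of 252 and 0 of 217, and Ground GS cells had 10 of 189, 14 of 233 and 25 of 218. These are levels of 0.37%, 0.40% and 0% against 5.29%, 6.01% and 11.5%, so that every Ground sample lay above every Space sample at each of the 5 sites. The other 65 sites of the run had 1.29% to 3.42% in Space and 1.46% to 1.67% in Ground GS cells, with overlapping groups. The 5 sites are read by shared fragments and are not independent of each other. Their mean levels were under the 5% needed to enter the main site test, and in the test of all 613931 sites above 0% and below 100% their unadjusted p-values were 0.000866 to 0.0073. After Benjamini-Hochberg adjustment over all these sites, the quasi-binomial test gave an adjusted p of 0.804 for each of them. Far from the start, the 6 Klf14 sites between 15385 bp downstream and 33513 bp upstream were methylated, at 96.9% ± 3.7 in Space and 96.6% ± 1.1 in Ground GS cells (SD, n = 3 each).

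**Figure D4:**
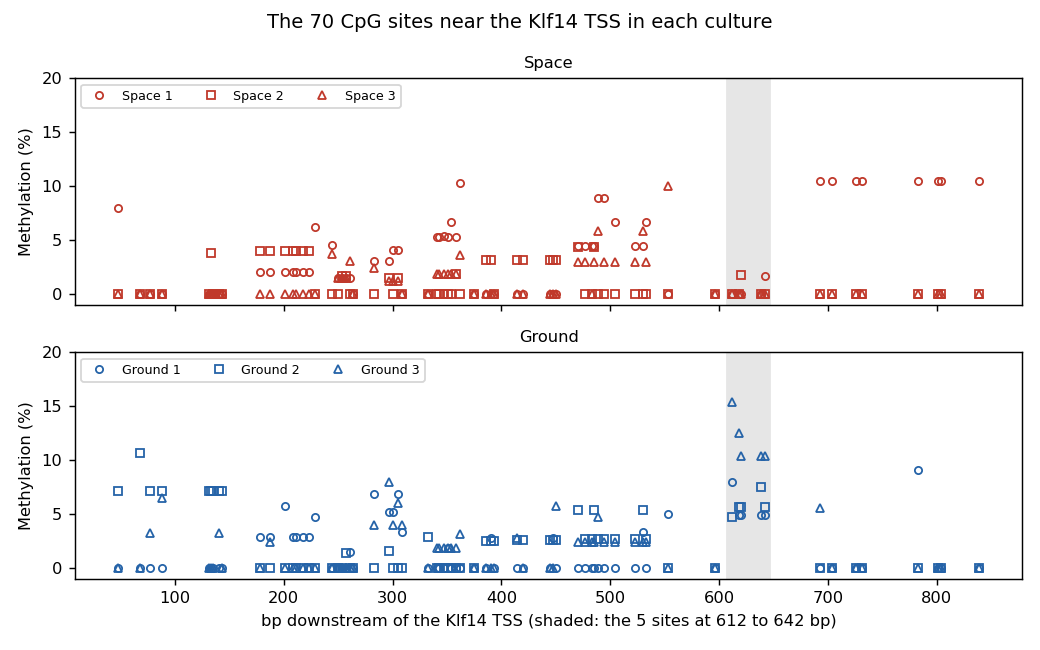
Methylation (%) of each of the 70 Klf14 CpG sites within 1 kb against its distance downstream of the TSS (bp). The 3 Space samples are above and the 3 Ground samples below. In the shaded stretch, the 5 sites at 612 to 642 bp, Space values reach at most 1.8% and Ground values run from 4.8% to 15.4%.

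Space and Ground GS cells were then compared at every site and block. None of the 262 member sites had group means more than 20 percentage points apart, and 0.196% of all common sites did. The median absolute difference was 1.37 points at the member sites and 1.45 points at all common sites. Space was higher at 136 member sites, lower at 105 and equal at 21. The median signed difference was 0.187 points at the member sites and 0 at all common sites. Neighbouring sites share fragments, and the direction was not counted over all common sites, so these counts are not read as a tilt. The quasi-binomial test compares methylated and total reads between groups with a dispersion estimated from the replicates. It took in the 25 member sites whose mean level was from 5% to 95%. Of these, 0 passed an adjusted p of 0.05 (0% of all 92042 sites tested), 1 had an unadjusted p under 0.05 (4.56% of all), and in 2 the groups did not overlap (9.07% of all). The edgeR quasi-likelihood test also called 0 of the 92042 sites. With the wider set of sites above 0% and below 100%, 242 member sites were tested. There, 0 passed the adjusted threshold (0% of all), 6 had an unadjusted p under 0.05 (2.92% of all), 5 of them the Klf14 sites above, and in 15 the groups did not overlap (5.54% of all).

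The member site with the largest difference was in the methylated Peg10 run, 8640 bp downstream of the TSS (chr6:4755946). It had 75%, 75% and 65% in Space and 100%, 78.6% and 94.1% in Ground GS cells, on 12 to 20 reads per sample. The group means of 71.7% and 90.9% differed by -19.2 points, with an unadjusted p of 0.0436 and an adjusted p of 0.989 in the quasi-binomial test.

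Blocks, which are stretches of 3 or more sites with gaps of up to 100 bp, gave the test more reads. The members had 15 blocks, of which 14 had a mean level of 1% to 99% and were tested. None passed an adjusted p of 0.05 (0% of all 46197 blocks tested), 0 had an unadjusted p under 0.05 (4.15% of all), and in 1, the Peg10 promoter, the groups did not overlap (9.35% of all). The edgeR quasi-likelihood test called 0 blocks as well. The smallest member p was 0.0697, for the Peg10 promoter block, with an adjusted p of 0.983 in the quasi-binomial test. Over the 15 sets formed by gene and distance class, the largest difference was 3.55 points and the smallest exact permutation p was 0.1, for the Peg10 promoter, so no set could pass 0.05.

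**Figure D5:**
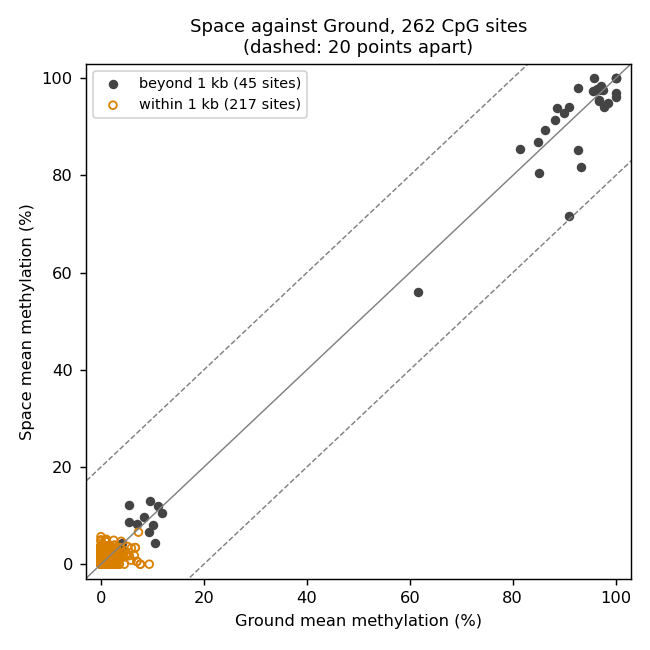
Mean methylation (%) in Space against Ground GS cells (n = 3 each) at the 262 member CpG sites, with open symbols within 1 kb of the TSS and filled symbols beyond. Dashed lines mark 20 percentage points, and no site lies beyond them.

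Other loci gave a scale for these levels. Of 19 genes listed as neighbours of the members, 5 had sites within 1 kb. Of these, 4 were under 10% and Cpa4 (1 site) was at 95.2%. Whether the neighbours lie inside the clusters or are imprinted themselves was not examined. The 13 tested blocks of the neighbours had 0 calls after adjustment (0% of all) and 1 unadjusted p under 0.05 (4.15% of all). Of 16 other genes whose imprints are set on the maternal allele, 14 were covered within 1 kb, all between 1.14% and 3.75%. The 7 member genes lay between 1.17% and 4.36%. All 5 genes with paternal imprints were at 1.60% to 5.22% within 1 kb. Of all 14373 promoters with at least 3 sites, 95.3% were under 10%. Whether the 1 kb windows hold the control regions of the listed genes was not examined. Beyond 1 kb every one of these lists was spread widely. Levels ran from 5.79% to 96.8% in 6 member genes and from 7.70% to 96.2% in 11 neighbours. They ran from 1.43% to 94.7% in 11 genes with maternal imprints and from 14.8% to 99.3% in the 5 with paternal imprints. The highest in the last list, H19, rests on 1 site. Promoters of 12 germline genes that somatic cells methylate served to check the labelled cell type against the fibroblast feeders. Of the 10 covered, 9 were under 10%, the highest of them at 3.68%. Dpep3 was at 26%, on 2 sites with 10.8% to 32.4% per sample. The mean over the 10, in which Dpep3 weighs most, ranged from 2.28% to 5.99% in the 6 samples. It was 4.95% in Space and 4.24% in Ground GS cells. The share of DNA from feeder cells in the member levels was not tested.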

How the data were processed

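RRBS libraries (Zymo-Seq RRBS kit) of 3 Space and 3 Ground samples, grouped by their titles, were analysed. The submitters' processing notes name Trim Galore, Bismark 0.24.2, methylKit and the build mm39. Their settings, and any removal of duplicates, are not given in the sources used here. The authors deposited 1 table with the read count of each CpG site and the percent of methylated reads per sample, and with the closest TSS. A site that lies between genes, or inside a gene with another start nearby, therefore counts for the closest TSS only. Methylated reads were count times percent, within 0.000266 of whole numbers. The minimum was 10 reads in every sample.

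Proportions were compared with a quasi-binomial test (dispersion moderated with limma 3.58.1, R 4.3.3) over all sites of mean level 5% to 95% and all blocks (at least 3 sites, gaps up to 100 bp, 1% to 99%), adjusted by Benjamini-Hochberg and called at 0.05. Pooled levels were compared by exact permutation tests, two-sided. Alternatives were 5 and 20 reads, edgeR 4.0.16, block gaps of 50 and 200 bp, equal site weights, a replicate block and leaving out each sample. For each gene, its levels by distance, its blocks and the site with the largest difference were named. Members and gene lists were chosen with earlier results of these data known. Figures used Python and matplotlib 3.10.9.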

Additional observations from a re-analysis of the deposited data

How the results depend on the processing

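No call was made at any member site or block under the alternatives run. Over all genes, the site test called 0 sites in the main setting and under every alternative except without Ground replicate 1, where it called 5, none in a member. Leaving out each sample in turn gave 0 to 5 sites and 0 to 0 blocks. edgeR called 0 sites, with 3769 at an unadjusted p under 0.05 against 4198 in the main test, and 0 blocks (1879 against 1918). With the replicate block, the site test called 0 (4524 unadjusted) and the block test 0 (1992 unadjusted). The labels state no pairing, although the sample descriptions carry consecutive numbers within each same-numbered pair. Same-numbered Space and Ground samples had correlations of 0.0438, 0.0220 and 0.00988 between their deviations from the group means. The other pairs had -0.0367 to 0.0146, the highest being Space replicate 3 with Ground replicate 2. Whether the replicate numbers pair the samples is therefore not settled. The block changed no call and is not read further. The sign-flip test over numbered pairs cannot go below 0.25.

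The 15 differences by gene and distance class (Space minus Ground, percentage points) were small. Of these, 2, Peg10 and Copg2 within 1 kb, kept their direction under all alternatives. For Peg10 within 1 kb, the exact permutation p (two-sided) stayed at 0.1 at a minimum of 5 reads. It was 0.7 at 20 reads and 0.2 with equal site weights, where the groups overlapped. For Copg2 within 1 kb, the exact permutation p was 0.2 at 5 reads and 0.3 at 20 reads. With equal site weights it was 0.1 for Copg2, and the groups did not overlap. Leaving out each sample in turn, Peg10 ranged from -2.33 to -0.58 within 1 kb and from -2.71 to 6.38 beyond 5 kb. Ppp1r9a ranged from -0.55 to 0.40 within 1 kb, from -2.54 to 2.96 at 1 to 5 kb and from -1.65 to -0.26 beyond 5 kb. Calcr ranged from -2.82 to 0.53 within 1 kb, and Mest from -0.27 to 6.46 at 1 to 5 kb and from -1.15 to 3.36 beyond. Copg2 ranged from 0.30 to 0.82 and Klf14 from -0.89 to 0.096 within 1 kb, and Klf14 from -0.83 to 2.40 beyond 5 kb. Nap1l5 ranged from -0.78 to 0.77 within 1 kb and from -2.81 to 2.86 beyond 5 kb, and Herc3 from -0.19 to 0.82 and from -3.29 to 0.48. At a minimum of 5 reads the difference changed sign beyond 5 kb in Peg10 (-0.28), Ppp1r9a (3.51), Klf14 (-1.0), Nap1l5 (2.24) and Herc3 (0.40), and within 1 kb in Herc3 (-0.28). At 20 reads it changed sign in Ppp1r9a at 1 to 5 kb (-0.26) and in Nap1l5 within 1 kb (-1.08) and beyond 5 kb (5.24). With equal site weights it changed sign beyond 5 kb in Peg10 (-2.79) and Klf14 (-0.12) and within 1 kb in Ppp1r9a (0.0026). The minimum of reads changes which sites enter, and the cause of the other changes was not tested. The difference at the named Peg10 site ranged from -25.4 to -14.7, and that of the 5 Klf14 sites, an alternative chosen after seeing the data, from -8.48 to -5.39. With 3 samples a group, differences of a few points could not be told from the spread between samples.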
